A study of Mus musculus with 4 samples.

Results

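The 8 genes described here were *Hmgcs1*, *Idi1*, *Fdps*, *Sqle*, *Insig1*, *Srebf2*, *Abca1* and *Abcg1*, taken by symbol from the 32285 genes of 2 single-cell RNA-Seq count tables of the mouse liver. Their working label is sterol synthesis and uptake, but none of the 8 is an uptake receptor: 4 encode enzymes of sterol synthesis, 2 encode regulators of it, and *Abca1* and *Abcg1* encode transporters that move sterol out of the cell. Uptake genes are therefore given from a separate list.

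Each table came from hepatic CD4+ T cells that were pooled from 2 male mice, sorted by flow cytometry and captured with a 5′ droplet kit in which every RNA molecule carries a unique molecular identifier (UMI) and is counted a single time. Both groups ate CD, a choline-deficient diet with 60 kcal% fat and 0.1% methionine that induces steatohepatitis, for 8 weeks. One library is labelled WT. The other is labelled dKO and came from mice with floxed *Nr4a1* and *Nr4a2* (fl/fl for each) and *Cd4Cre*, in which Cre is driven by *Cd4* regulatory sequence and deletes floxed alleles of these orphan nuclear receptors in T cells. The age of these animals is not given in the sources used here. With 1 library per genotype and no way to separate the pooled mice, no test between the genotypes was possible, and no p-value is given. Values are summed UMIs scaled by all UMIs of the same cells to a common total of 1000000 (CPM). Ranges in parentheses are exact 95% intervals and cover counting error only.

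Cholesterol is made from acetyl-CoA through the mevalonate pathway. HMGCS1 makes HMG-CoA, IDI1 isomerises isopentenyl diphosphate, FDPS makes farnesyl diphosphate, and SQLE oxidises squalene at the first oxygen-requiring step. When sterol in the endoplasmic reticulum is low, SCAP escorts SREBP2, the product of *Srebf2*, to the Golgi for cleavage, and the released factor activates the genes of synthesis and uptake. INSIG1 holds SCAP back when sterol is high. Sterol excess activates the liver X receptors (LXR), which induce *Abca1* and *Abcg1*. Dividing lymphocytes need sterol for new membrane, and macrophages that take up lipoproteins and dead cells are known for high efflux.

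All 8 genes are protein-coding genes of GRCm38. *Hmgcs1* (ENSMUSG00000093930) lies on chromosome 13 from 119690379 to 119708260, *Idi1* (ENSMUSG00000058258) on chromosome 13 from 8885501 to 8892451, and *Insig1* (ENSMUSG00000045294) on chromosome 5 from 28071363 to 28078662. *Sqle* (ENSMUSG00000022351) spans 59315077 to 59331192 and *Srebf2* (ENSMUSG00000022463) spans 82147181 to 82205379 of chromosome 15, and these 5 genes are on the plus strand. *Fdps* (ENSMUSG00000059743) lies on the minus strand of chromosome 3 from 89093588 to 89101959. *Abca1* (ENSMUSG00000015243) lies on the minus strand of chromosome 4 from 53030787 to 53159895, and *Abcg1* (ENSMUSG00000024030) on the plus strand of chromosome 17 from 31057675 to 31117988.

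RefSeq promoter windows of build GRCm38.p6 were matched for 5 of the 8 genes. Those of *Hmgcs1*, *Srebf2*, *Insig1* and *Abca1* are printed as the bases upstream of both the RefSeq and the GENCODE start. The window of *Idi1* was searched but is not printed. Capitals mark TCACCCCA, letters of the sterol regulatory element that SREBP2 binds, and CCAAT, the box bound by NF-Y, a usual partner of SREBP2. Both were searched on both strands, and ATTGG is CCAAT read from the other strand.
Hmgcs1, chr13:119690101-119690350, plus strand: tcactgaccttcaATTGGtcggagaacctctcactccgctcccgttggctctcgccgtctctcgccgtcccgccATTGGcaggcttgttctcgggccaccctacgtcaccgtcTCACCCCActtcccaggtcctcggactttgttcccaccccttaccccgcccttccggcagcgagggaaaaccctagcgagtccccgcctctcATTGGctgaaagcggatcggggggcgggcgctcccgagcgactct
Srebf2, chr15:82147019-82147180, plus strand: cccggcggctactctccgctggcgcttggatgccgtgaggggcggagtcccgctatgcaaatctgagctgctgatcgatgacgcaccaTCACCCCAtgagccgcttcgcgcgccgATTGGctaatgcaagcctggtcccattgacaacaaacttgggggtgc
Insig1, chr5:28071162-28071362, plus strand: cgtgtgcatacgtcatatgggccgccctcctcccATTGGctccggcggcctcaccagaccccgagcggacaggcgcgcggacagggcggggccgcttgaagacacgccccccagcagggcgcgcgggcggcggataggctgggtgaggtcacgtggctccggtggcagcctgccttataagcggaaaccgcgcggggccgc
Abca1, chr4:53159896-53160145, minus strand: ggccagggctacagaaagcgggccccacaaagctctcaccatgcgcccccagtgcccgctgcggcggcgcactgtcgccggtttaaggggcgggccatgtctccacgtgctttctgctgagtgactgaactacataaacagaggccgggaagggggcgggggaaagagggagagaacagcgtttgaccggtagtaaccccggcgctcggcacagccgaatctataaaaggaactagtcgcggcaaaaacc
Over the full windows of 300 bases, TCACCCCA occurred in *Hmgcs1* and *Srebf2* and in 1.56% of all 32851 windows, at 137 bases and 162 bases before the RefSeq start. CCAAT occurred in *Hmgcs1* at 4 places, in *Idi1* at 2, and once each in *Insig1* and *Srebf2*, and was present in 37.4% of all windows. The window of *Abca1* held neither. The LXR binding unit AGGTCA repeated on the same strand after 4 other bases was in none of the 5 windows and in 0.0152% of all. These matches are descriptions of letters, not binding sites.

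The targeted genes were counted first. *Nr4a1* (chromosome 15, 101254269 to 101274795) was at 725 CPM (714 to 736) in the library labelled WT, against 1659 CPM (1646 to 1672) in the one labelled dKO. *Nr4a2* (chromosome 2, 57106830 to 57124003) was at 183 CPM (178 to 189), against 306 CPM (300.2 to 311). These values are over all cells. Over the T cells gated below, *Nr4a1* had 732 CPM (719 to 745) and 1929 CPM (1910 to 1948). *Nr4a2* had 201 CPM (194 to 208) and 436 CPM (427 to 445) in them. Levels higher in the library labelled dKO go against the labels, but the counts do not show whether the UMIs came from the deleted part of these genes, so that they do not check the deletion itself. The libraries are therefore called by their labels throughout, and every direction between them rests on those labels.

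After the study's filters, 10556 of 10602 cells with 23437516 UMIs remained for the label WT, and 17462 of 17645 cells with 37794986 UMIs for the label dKO. A total of 245 cell barcodes occurred in both. Cells were divided by marker gates into 10 classes. T cells, with a *Cd3* UMI and none of the other gates, made up 73.8% and 69.6%. Siglech+ cells passed a gate of plasmacytoid dendritic cell genes and numbered 893 and 1308, and all 5 further genes of that cell type (*Irf8*, *Tcf4*, *Bst2*, *Ccr9*, *Runx2*) were present at a summed 9083 and 8893 CPM against 279 and 469 CPM in T cells. *Cd4*, the marker of the sort, had 225 and 323 CPM in Siglech+ cells and 252 and 870 CPM in T cells. C1q+ cells passed a macrophage gate (91 and 140 cells), and the Kupffer cell gene *Clec4f* was at 21.1 and 63.1 CPM in them. Of the other macrophage genes, *Adgre1* had 201 and 236 CPM, *Vsig4* 31.7 and 51.4 CPM and *Cd5l* 47.6 and 287 CPM. *Timd4*, of the same list, had 0 CPM in C1q+ cells of both libraries. The other myeloid cells, Lyz2+ C1q-, numbered 146 and 223, and had 0 and 12.2 CPM of *Timd4*. Cells that passed conflicting gates were called mixed and left out of the classes: 826 and 2891, of which 573 and 2431 passed both the Siglech and the Lyz2 gates. Median depth differed between the libraries in Siglech+ cells, at 1135 and 2731 UMIs, and in T cells, at 1734 and 1378 UMIs.

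The 4 synthesis enzymes were higher in Siglech+ cells than in T cells. *Fdps* stood at 140 CPM (121 to 162) there for the library labelled WT and at 183 CPM (170 to 198) for the other, against 31.2 CPM (28.6 to 33.9) and 38.8 CPM (36.2 to 41.5) over all T cells. This was a 4.50-fold (3.79 to 5.33) and 4.73-fold (4.27 to 5.25) difference, the highest fold of the 8 genes in this class in both libraries.

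*Hmgcs1* had 51.6 CPM (40.1 to 65.4) and 96.0 CPM (86.1 to 107) in Siglech+ cells and 20.3 and 24.9 CPM in T cells, a 2.55-fold (1.93 to 3.31) and 3.85-fold (3.36 to 4.42) difference. *Idi1* had 42.5 CPM (32.1 to 55.2) and 68.5 CPM (60.2 to 77.6) against 17.1 and 22.7 CPM, which was 2.48-fold (1.83 to 3.32) and 3.02-fold (2.58 to 3.52). *Sqle*, the lowest of the 4 enzymes, had 21.2 CPM (14.1 to 30.7) and 24.7 CPM (19.8 to 30.4) against 10.9 and 9.24 CPM. In both libraries each of these intervals lay above that of all T cells. Siglech+ cells were not the top class for every gene: in the library labelled WT *Hmgcs1* was 56.2 CPM (33.9 to 87.8) in Lyz2+ C1q- cells, on 19 UMIs, and its interval overlapped that of Siglech+ cells. Those 19 UMIs lay in 9 cells, and 1 cell held 10 of them.

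The regulators differed less. *Insig1* had 64.5 CPM (51.5 to 79.7) and 81.0 CPM (72.0 to 90.9) in Siglech+ cells against 36.4 and 46.0 CPM in T cells, 1.77-fold (1.39 to 2.22) and 1.76-fold (1.54 to 2.01). *Srebf2* was at 85.0 CPM (70.0 to 102) and 104 CPM (93.8 to 115) in Siglech+ cells and 62.4 and 66.2 CPM in T cells, which at 1.36-fold and 1.57-fold did not pass the fold in both libraries.

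A gene was counted as past the fold between classes when it differed by 1.5-fold in the same direction in both libraries. Of the 8 genes, 5 were higher in Siglech+ cells than in T cells (*Hmgcs1*, *Idi1*, *Fdps*, *Sqle*, *Insig1*), where 14.5% of 12032 genes were, and 1 was lower (*Abca1*), where 26.2% of genes were. The median log2 ratio of the 8 genes, as the mean of the libraries, was 1.14, and that of all genes was -0.27.

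**Figure D1:**
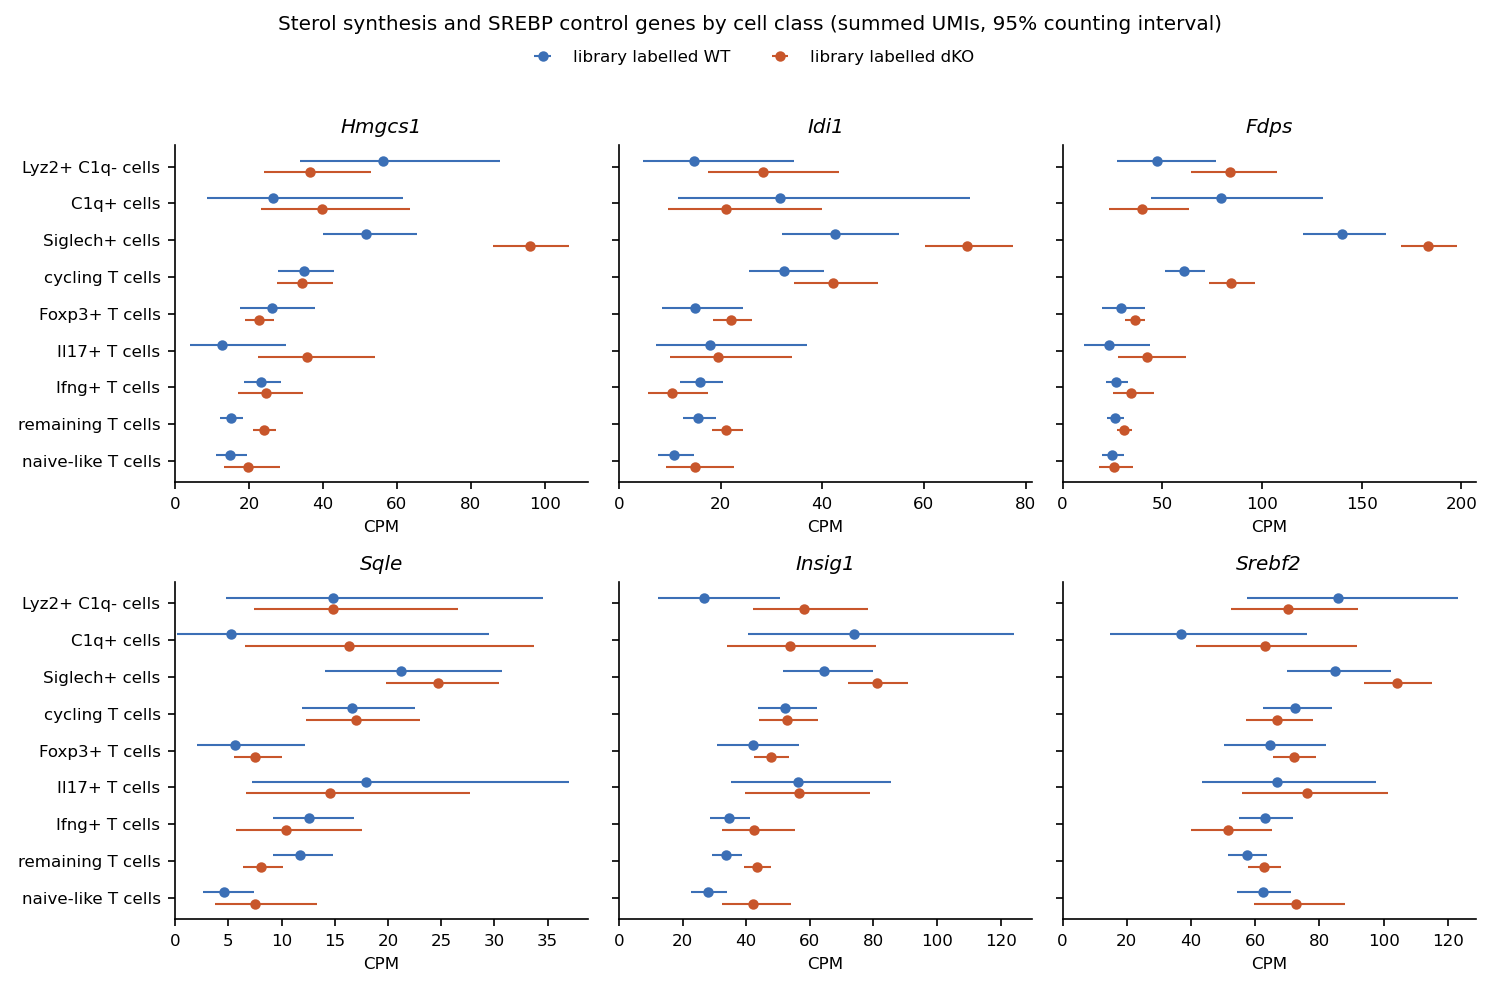
Level in CPM (x axis) of the 4 synthesis enzymes, *Insig1* and *Srebf2* in 9 cell classes (y axis), as points with exact 95% counting intervals for the library labelled WT (blue) and the library labelled dKO (orange). *Fdps* stood at 140 and 183 CPM in Siglech+ cells and at 84.3 CPM or lower elsewhere, while *Srebf2* ranged from 37.0 to 104 CPM with overlapping intervals in most classes.

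The wider synthesis list held 21 enzymes. In Siglech+ cells 12 of the 21 were higher in both libraries and 0 were lower, where 14.5% of 12032 genes were higher and 26.2% lower. The largest difference outside the 8 genes was that of *Pmvk*, which phosphorylates mevalonate phosphate, at 7.06-fold and 4.98-fold. *Ggps1*, which draws farnesyl diphosphate toward geranylgeranyl diphosphate and away from sterol, did not pass the fold in either direction. Of the 7 genes of SREBP control, *Insig1* and *Scap* were higher and 0 were lower, against the same shares of all genes. *Scap*, the escort protein, was higher by 3.38-fold and 3.51-fold.

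**Figure D2:**
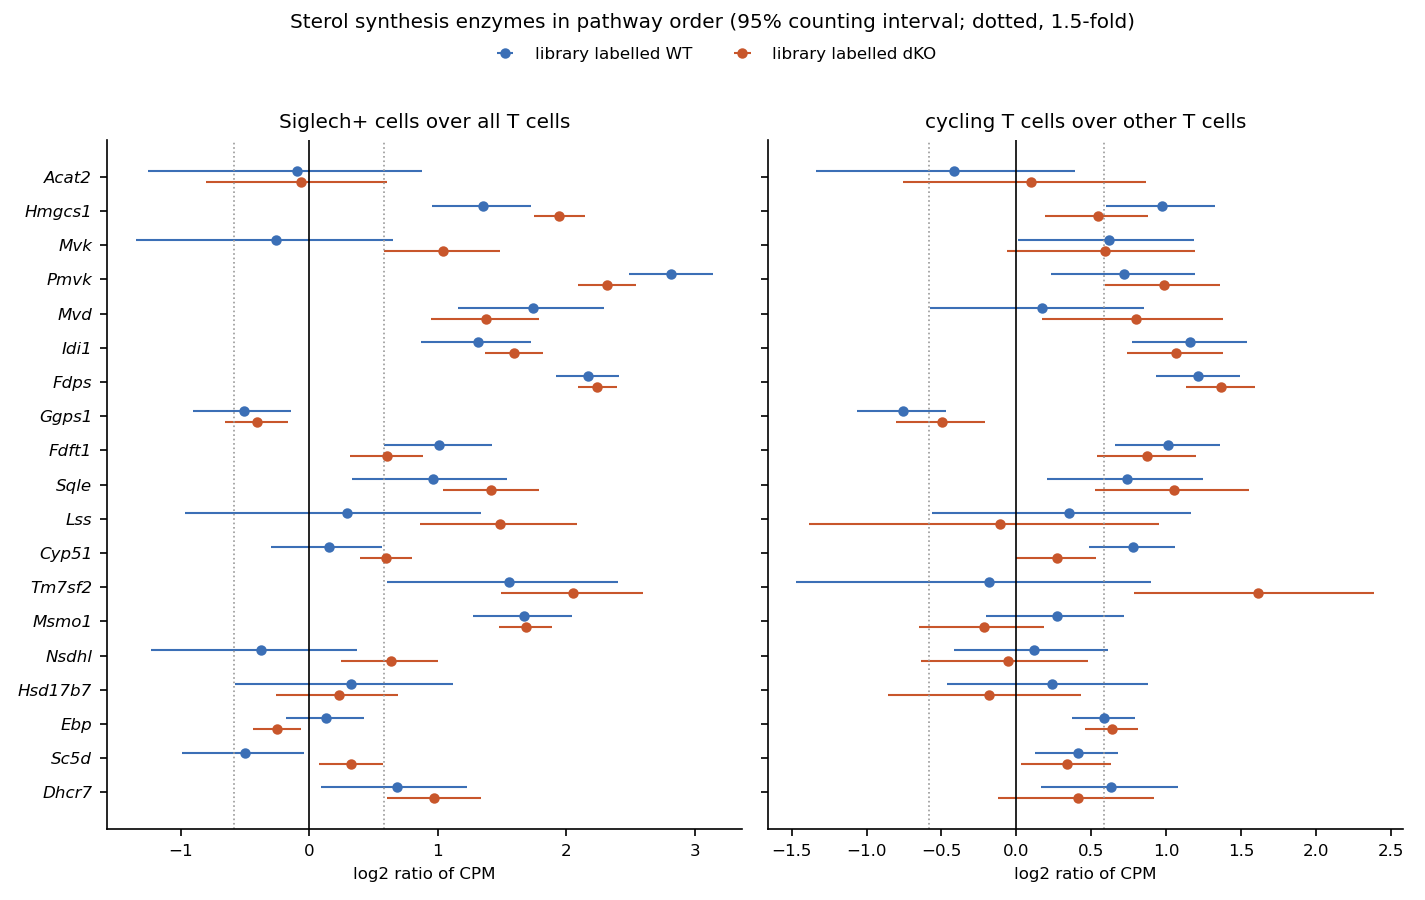
Log2 ratio of CPM (x axis) for 19 of the 21 enzymes of sterol synthesis in pathway order (y axis), Siglech+ cells over all T cells on the left and cycling T cells over the other T cells on the right, with 95% counting intervals in each library. In Siglech+ cells 10 of the 19 enzymes drawn lie beyond the dotted 1.5-fold line on the right in both libraries, and in cycling T cells 6 do. Of all genes 14.5% and 10.2% were higher in these comparisons.

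Some uptake genes also stood higher in Siglech+ cells. Of 10 genes of uptake and lysosomal release, 8 had enough UMIs, 5 were higher and 1 was lower, against 14.5% and 26.2% of all genes. *Lrp8*, an apolipoprotein E receptor, had 246 and 282 CPM in Siglech+ cells, 22.5-fold and 25.5-fold above T cells. *Npc1*, which exports cholesterol from the lysosome, was 9.64-fold and 10.7-fold higher, and *Scarb1*, an HDL receptor, 9.17-fold and 10.8-fold. The sterol carrier *Stard4* was 3.90-fold and 3.62-fold lower. In the efflux list, of 12 genes 8 had enough UMIs, 1 was higher and 2 were lower (*Abca1* and *Soat1*), with a median log2 ratio of -0.33 against -0.27 for all genes. The one that was higher, *Cyp27a1*, which makes 27-hydroxycholesterol, had 17.4 and 9.99 CPM there on 23 and 36 UMIs, and was 59.8-fold and 53.2-fold above T cells.

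To remove the difference in depth, a random 1000 UMIs were drawn from every cell, and cells with fewer were dropped (341 and 9 Siglech+ cells, 1135 and 2685 T cells). *Fdps* was then detected in 61 of 552 Siglech+ cells, 11.1% (8.56 to 14.0), for the label WT and in 216 of 1299, 16.6% (14.6 to 18.8), for the label dKO. Among T cells the shares were 2.84% (2.45 to 3.27) and 3.21% (2.86 to 3.59). *Hmgcs1* was detected in 4.35% (2.81 to 6.40) and 9.16% (7.65 to 10.9) of Siglech+ cells and in 1.55% and 2.20% of T cells. As a measure of free RNA in droplets, *Alb*, the hepatocyte gene of serum albumin, was detected in 0.195% and 0.0845% of T cells and in 0 of 552 and 0 of 1299 Siglech+ cells. Without thinning, *Fdps* was detected in 17.5% and 31.9% of Siglech+ cells.

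In Siglech+ cells of the library labelled dKO, *Hmgcs1* was found more often in cells with *Fdps*. Among those cells after thinning, *Hmgcs1* was detected in 34 of 216 cells with an *Fdps* UMI, 15.7% (11.2 to 21.3), and in 85 of 1083 cells without, 7.85% (6.32 to 9.61). The other genes compared had overlapping intervals with and without *Fdps*. *Idi1* was detected in 9.72% (6.12 to 14.5) and 6.74% (5.32 to 8.40), *Sqle* in 2.78% and 1.57%, and *Insig1* in 8.80% and 7.48%. *Srebf2* was detected in 7.87% and 8.68%, and *Abcg1* in 13.9% (9.57 to 19.2) and 13.7% (11.7 to 15.9). In the library labelled WT the same shares for *Hmgcs1* were 6.56% (1.82 to 15.9) among 61 cells with *Fdps* and 4.07% (2.51 to 6.22) among 491 without, so a difference was not detectable at this depth. In the remaining T cells, those with none of the T cell gates, *Hmgcs1* was detected in 4.88% (1.34 to 12.0) and 8.09% (4.11 to 14.0) of cells with *Fdps*. Of cells without *Fdps* it was detected in 1.29% (0.903 to 1.78) and 1.85% (1.48 to 2.28), and the intervals overlapped in the library labelled WT alone. The same held for *Idi1* in the remaining T cells. It was detected in 4.88% (1.34 to 12.0) and 7.35% (3.58 to 13.1) of cells with *Fdps*. Without *Fdps* the *Idi1* shares were 1.07% (0.725 to 1.53) and 1.92% (1.54 to 2.35). In cycling T cells *Hmgcs1* was detected in 7.69% (0.946 to 25.1) and 3.13% (0.0791 to 16.2) of cells with *Fdps* and in 1.51% (0.653 to 2.95) and 3.26% (1.80 to 5.41) of cells without, with overlapping intervals in both libraries.

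Within T cells *Fdps* and *Idi1* were highest in cycling cells, the 593 and 462 cells gated on genes of division such as *Mki67* and *Top2a*. *Fdps* had 60.8 CPM (51.4 to 71.3) and 84.3 CPM (73.2 to 96.6) there, 2.32-fold (1.91 to 2.81) and 2.57-fold (2.19 to 3.01) above the other T cells. *Idi1* had 32.4 CPM (25.7 to 40.3) and 42.2 CPM (34.4 to 51.1), 2.23-fold and 2.09-fold above them. *Sqle* had 16.6 and 17.0 CPM, 1.67-fold and 2.07-fold above them, though Il17+ T cells had 17.9 CPM on 7 UMIs in the library labelled WT.

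*Hmgcs1* had 34.8 and 34.5 CPM in cycling T cells and *Insig1* had 52.3 and 52.7 CPM. Each passed 1.5-fold above the other T cells in the library labelled WT alone. Over all T cells, cycling cells included, *Hmgcs1* had 20.3 and 24.9 CPM and *Insig1* 36.4 and 46.0 CPM. *Srebf2* had 72.5 and 66.9 CPM, against 60.7 and 66.2 CPM in the other T cells. The efflux genes went the other way. *Abcg1* had 21.9 CPM (16.4 to 28.5) and 28.4 CPM (22.1 to 35.8), its lowest class in both libraries, at 0.48 and 0.60 of the level in other T cells. *Abca1* had 5 UMIs in the library labelled WT, at 2.03 CPM (0.658 to 4.73). It had 0 UMIs in the library labelled dKO, where 3 UMIs would be 1.22 CPM, and so was at least 4.19-fold lower than in other T cells.

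Of the 8 genes, 3 were higher in cycling T cells, against 10.2% of 11656 genes, and 2 were lower, against 11.1%. Of the 21 synthesis enzymes 7 were higher and 0 lower, among them *Fdft1*, which makes squalene, at 2.02-fold and 1.83-fold. *Soat2*, which esterifies cholesterol for storage, was 1.82-fold and 2.01-fold higher, and *Scarb1* 1.83-fold and 2.03-fold. *Mylip*, an LXR target that encodes a ubiquitin ligase, was 2.05-fold and 2.79-fold lower, and *Apoe* was 3.53-fold and 3.07-fold lower. Cycling T cells were also the deepest T cells, with medians of 3349 and 4842 UMIs. The part of depth in these differences was not tested, and with at least 1000 UMIs per cell 3 of the 8 genes were again higher and 2 lower.

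Naive-like T cells (1389 and 771 cells, gated on genes such as *Ccr7* and *Lef1*) went the other way for *Idi1* and *Abca1*. *Idi1* was lowest there in the library labelled WT, at 10.8 CPM (7.67 to 14.9), and had 15.0 CPM (9.37 to 22.6) in the other, 0.58 and 0.64 of the other T cells. *Abca1* had 10.5 CPM (7.43 to 14.5) and 10.9 CPM (6.22 to 17.7), which was 1.63-fold (1.08 to 2.42) and 2.70-fold (1.47 to 4.65) above them. Of the 8 genes 1 was higher and 1 lower, against 3.82% and 13.8% of genes. Of the 21 synthesis enzymes 0 were higher and 6 were lower, led by *Lss*, the lanosterol synthase, on 11 and 2 UMIs, and *Fdft1*, which was at 0.54 and 0.47 of the other T cells.

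Foxp3+ T cells carry the regulatory T cell factor. They numbered 430 and 3213, or 4.07% (3.70 to 4.47) and 18.4% (17.8 to 19.0) of the cells. None of the 8 genes passed the fold in both libraries in either direction, where 3.6% of genes were higher and 4.52% lower. None of the 21 synthesis enzymes did either. With so few of all genes past the fold, these counts do not separate the listed genes from the rest. *Abca1* passed it in the library labelled WT alone, at 2.70-fold (1.56 to 4.43) above the other T cells. In the library labelled dKO it was at 1.13-fold (0.709 to 1.77). *Fdps* had 29.1 CPM (19.8 to 41.3) and 36.2 CPM (31.5 to 41.2), and *Abcg1* had 58.1 CPM (44.6 to 74.5) and 50.9 CPM (45.4 to 56.9). *Abca1* stood at 17.8 CPM (10.7 to 27.8) on 19 UMIs under the label WT and at 4.91 CPM (3.31 to 7.01) on 30 UMIs under the label dKO, and these intervals did not overlap. *Apoe* also differed there, at 99.4 and 42.5 CPM.

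In Ifng+ T cells (1512 and 766) none of the 8 genes passed the fold, where 2.02% of genes were higher and 4.21% lower. In Il17+ T cells (173 and 319) *Sqle* was higher, on 7 and 9 UMIs, where 3.74% of genes were, and *Abca1* was lower, on 1 UMI in each library, where 5.87% were. The intervals of both ratios included 1 in each library.

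*Abca1* was a gene of the C1q+ cells. Its level was 312 CPM (237 to 402) in the library labelled WT, 348 CPM (294 to 409) in the one labelled dKO, against 7.30 CPM (6.07 to 8.70) and 4.50 CPM (3.65 to 5.50) in T cells. The difference was 42.7-fold (30.8 to 58.7) and 77.3-fold (59.4 to 101). Without cells under 8% ribosomal protein UMIs the level in the library labelled dKO was 218 CPM, below its interval, against 4.41 CPM in T cells. The Lyz2+ C1q- cells came next with 97.7 CPM (67.2 to 137) and 104 CPM (82.1 to 130), and none of the other 7 classes drawn passed 17.8 CPM. Siglech+ cells were near 0, with 1 UMI and 10 UMIs, 0.759 CPM (0.0192 to 4.23) and 2.77 CPM (1.33 to 5.10).

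After thinning to 1000 UMIs, *Abca1* was detected in 9 of 70 C1q+ cells, 12.9% (6.05 to 23.0), and in 29 of 128, 22.7% (15.7 to 30.9). The share in Siglech+ cells was 0.181% and 0.154%. *Alb* was detected in 4.29% (0.893 to 12.0) and 0.781% (0.0198 to 4.28) of the same C1q+ cells. The 8 hepatocyte genes summed to 338 and 308 CPM there, of which *Trf*, the gene of transferrin, gave 323 and 294 CPM, against 19.7 and 64.2 CPM in T cells. *Alb* was at 15.9 and 4.67 CPM, and 6 and 3 of the 8 genes were at 0. The part of hepatocyte RNA in C1q+ cells was not tested.

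*Abcg1* was broader than *Abca1*. Over T cells it had 42.0 CPM (39.0 to 45.2) and 44.8 CPM (42.0 to 47.7). C1q+ cells had 84.6 CPM (48.4 to 137) and 147 CPM (113 to 188), 2.01-fold and 3.29-fold above T cells, and 104 CPM (72.1 to 144) and 81.1 CPM (61.9 to 104) in Lyz2+ C1q- cells. In the library labelled WT, Siglech+ cells had 54.6 CPM (42.7 to 68.8), within the range of the T cell classes. In the library labelled dKO they had 158 CPM (145 to 171), the highest of the 9 classes, though its interval overlapped that of C1q+ cells.

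**Figure D3:**
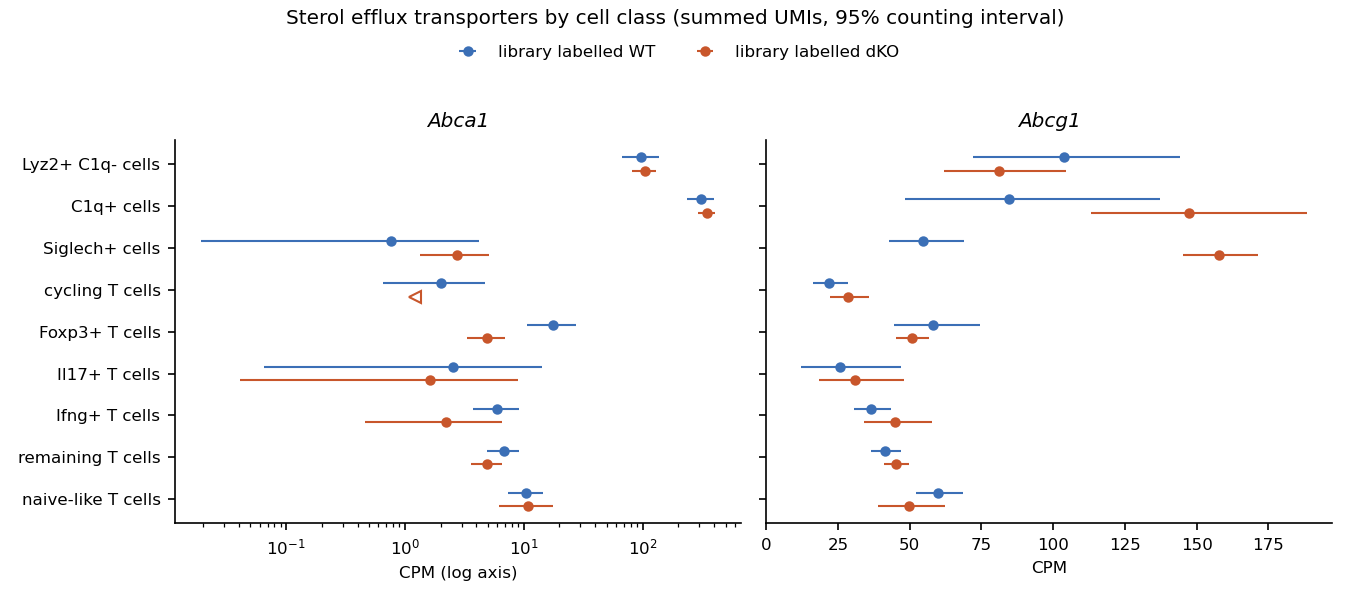
Level in CPM (x axes, on a log scale for *Abca1*) of *Abca1* and *Abcg1* in 9 cell classes (y axis), with exact 95% counting intervals in the library labelled WT (blue) and labelled dKO (orange). The open triangle marks 0 UMIs, placed at the 1.22 CPM that 3 UMIs would give. *Abca1* reached 312 and 348 CPM in C1q+ cells, and *Abcg1* in Siglech+ cells was 54.6 and 158 CPM.

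Of the 8 genes, *Abca1* and *Abcg1* were higher in C1q+ cells in both libraries, against 11.1% of 11786 genes, and none was lower, against 18.1%. In the efflux list, of 12 genes 8 had enough UMIs and 5 were higher. *Nr1h3*, which encodes LXR alpha, had 148 and 119 CPM in C1q+ cells and under 1.3 CPM in T cells. *Apoe* had 16395 and 11743 CPM there. In uptake and lysosomal release 5 genes were higher and 1 was lower, with *Lipa*, the lysosomal acid lipase, at 15.2-fold and 19.5-fold and *Scarb1* at 10.7-fold and 17.2-fold. Of the 21 synthesis enzymes 0 were higher and 2 were lower. The 5 synthesis members other than *Srebf2* had between 1 and 23 UMIs each in C1q+ cells, so that *Hmgcs1*, for example, was 26.4 CPM (8.58 to 61.7) and 39.7 CPM (23.1 to 63.6).

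In Lyz2+ C1q- cells *Fdps*, *Abca1* and *Abcg1* were higher than in T cells, against 11.4% of 11848 genes, and none of the 8 was lower, against 20.5%. *Fdps* was 1.52-fold and 2.16-fold higher, with an interval in the library labelled WT that included 1. In the efflux list 5 of 8 genes with enough UMIs were higher here too (*Nr1h3*, *Abca1*, *Abcg1*, *Apoe* and *Soat1*) and 0 were lower. Of 8 genes of uptake and lysosomal release 6 were higher and 1 was lower, and of the 21 synthesis enzymes 3 were higher and 1 lower. This class was not alike in the libraries: *S100a8*, a granule gene of neutrophils, had 20.7 CPM in the one labelled WT and 6102 CPM in the one labelled dKO. The 6 and 9 Ccl22+ cells were too few to describe.

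Between the libraries, 4 of the 8 genes were past 1.5-fold over all cells, each higher in the library labelled dKO. *Hmgcs1* had 25.8 CPM (23.8 to 27.9) and 49.6 CPM (47.4 to 51.9), 1.93-fold (1.76 to 2.11). *Fdps* had 46.1 CPM (43.4 to 48.9) and 88.5 CPM (85.6 to 91.6), 1.92-fold (1.79 to 2.06). *Idi1* had 24.2 and 40.2 CPM, 1.66-fold (1.51 to 1.83), and *Abcg1* 47.8 and 84.2 CPM, 1.76-fold (1.64 to 1.89). In this comparison 12.6% of 13112 genes were higher and 12.6% lower.

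The other 4 genes did not pass the fold. *Insig1* was 1.35-fold (1.25 to 1.45) higher, *Srebf2* 1.16-fold (1.09 to 1.24), *Sqle* 1.14-fold (0.994 to 1.32) and *Abca1* 1.03-fold (0.888 to 1.19). Of the 21 synthesis enzymes 8 were higher and 0 lower, where 12.6% of all genes were higher and 12.6% lower. Their median log2 ratio was 0.30 against -0.02 for all genes. *Lrp8* and *Npc1*, which were among the uptake genes higher in Siglech+ cells, were 2.11-fold and 2.16-fold higher. *Soat2* was 2.88-fold lower.

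The cells behind these sums were not alike. Siglech+ cells were 8.46% and 7.49% of the cells and mixed cells 7.82% and 16.6%. Siglech+ and mixed cells together held 20.4% of all UMIs for the label WT, against 38.0% for the label dKO. They held 44.9% (41.9 to 47.9) and 71.0% (69.4 to 72.5) of *Fdps* UMIs, 34.9% and 67.5% of *Hmgcs1* UMIs, and 25.6% and 64.1% of *Abcg1* UMIs. Without these cells none of the 8 genes was past 1.5-fold: *Hmgcs1* was 1.23-fold, *Fdps* 1.30-fold, *Idi1* 1.36-fold and *Abcg1* 1.09-fold higher. With the classes of both libraries weighted to 1 mix, *Hmgcs1* was 1.58-fold and *Abcg1* 1.52-fold higher, and the other 6 did not pass the fold, *Fdps* being nearest to it. Both of these settings were chosen after the data were seen.

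**Figure D4:**
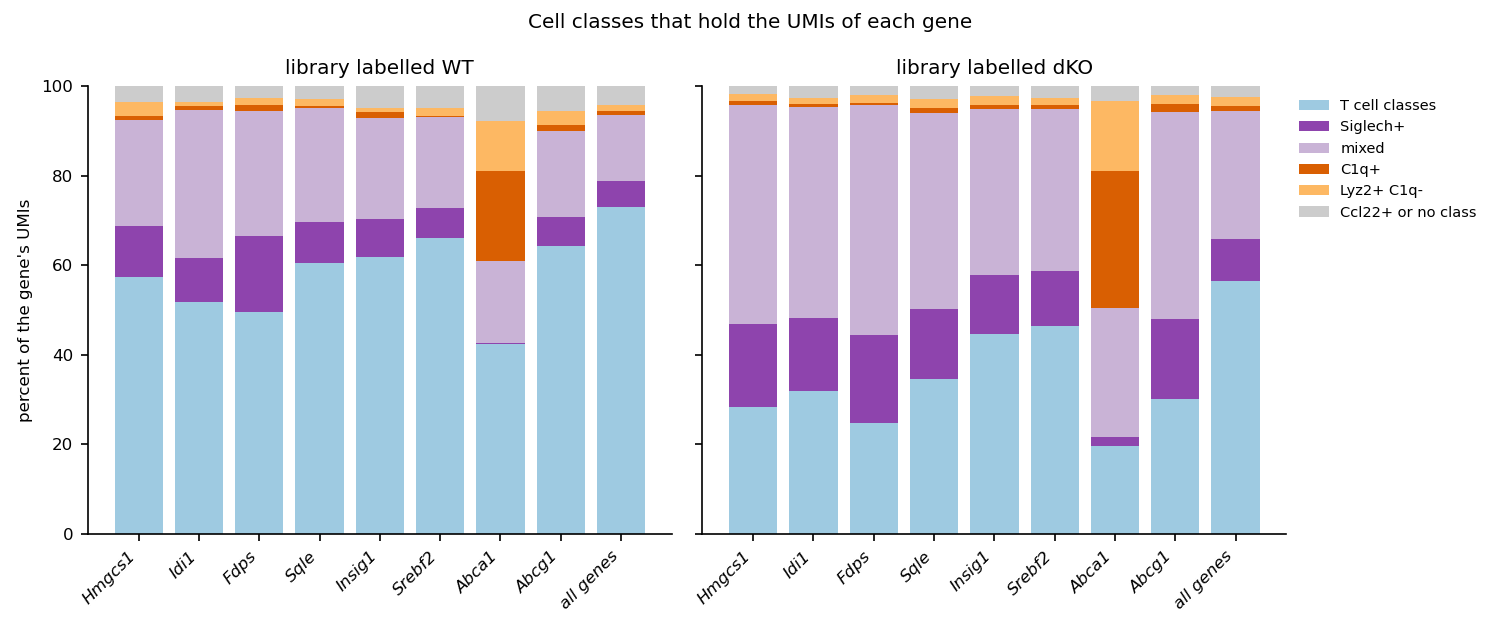
Percent of each gene's UMIs (y axis) held by cell classes (colours) in the library labelled WT (left) and labelled dKO (right), with all genes together as the last bar. T cell classes held 49.4% of *Fdps* UMIs in the one and 24.7% in the other, against 73.1% and 56.4% of all UMIs, and C1q+ cells held 59 of 295 and 149 of 489 *Abca1* UMIs.

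Over all T cells, none of the 8 genes was higher by 1.5-fold in the library labelled dKO, where 10.9% of 11821 genes were, and 1 was lower, where 11.3% were. That gene was *Abca1*, at 7.30 CPM on 125 UMIs and 4.50 CPM on 96 UMIs, 1.62-fold lower, with an interval of the log2 ratio from -1.10 to -0.30. Its levels were 10.5 and 10.9 CPM in naive-like T cells, 6.79 and 4.94 CPM in the remaining T cells and 6.02 and 2.24 CPM in Ifng+ T cells. *Idi1* was 1.33-fold (1.15 to 1.54), *Insig1* 1.26-fold (1.14 to 1.40), *Fdps* 1.24-fold (1.11 to 1.39) and *Hmgcs1* 1.23-fold (1.07 to 1.41) higher. The further plasmacytoid dendritic cell genes also differed in T cells, with *Ccr9* at 3.68 and 38.2 CPM and *Irf8* at 23.8 and 47.5 CPM. *Tcf4* had 13.7 and 27.6 CPM, *Bst2* 128 and 169 CPM and *Runx2* 110 and 186 CPM. The part of such RNA in these differences was not tested. *Sqle* had 10.9 and 9.24 CPM, *Srebf2* 62.4 and 66.2 CPM and *Abcg1* 42.0 and 44.8 CPM. *Msmo1*, a sterol demethylating oxidase, passed the fold at 16.9 and 25.5 CPM. *Mylip* was 1.71-fold lower. Within single T cell classes 3 calls were made among the genes with enough UMIs (8 in the remaining T cells, and 7 each in naive-like and Ifng+ T cells), 2 of them higher and 1 lower.

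In the remaining T cells *Hmgcs1* was at 15.1 CPM (12.1 to 18.5) against 24.1 CPM (21.0 to 27.4), 1.60-fold (1.25 to 2.06) higher, where 10.5% of 10188 genes were higher and 9.51% lower. This class was not alike in the libraries. The 4 further genes of regulatory T cells (*Il2ra*, *Ctla4*, *Ikzf2*, *Tnfrsf18*) summed to 853 and 3448 CPM in it and the 5 of plasmacytoid dendritic cells to 296 and 512 CPM, and their part in the difference was not tested. In naive-like T cells *Insig1* had 27.9 and 42.1 CPM, 1.51-fold (1.08 to 2.09) higher, where 5.67% of genes were higher and 7.58% lower. There *Ctla4* had 208 and 527 CPM, *Ikzf2* 100 and 246 CPM, *Tnfrsf18* 135 and 325 CPM and *Il2ra* 29.9 and 34.0 CPM. The B cell gene *Cd79a* had 8.84 and 48.3 CPM, and the part of these other cells in the difference was not tested. In Ifng+ T cells *Idi1* had 15.9 CPM on 58 UMIs and 10.5 CPM on 14 UMIs, 1.52-fold lower, with an interval of the log2 ratio from -1.56 to 0.26, where 6.04% of genes were higher and 11.9% lower. The calls of *Insig1* and *Idi1* lay close to 1.5-fold and did not hold after TMM scaling, and none of the 3 calls held when Foxp3+ T cells were gated on 2 or more *Foxp3* UMIs. In Foxp3+ T cells none of 7 genes with enough UMIs passed the fold, where 12.1% of genes were higher and 9.91% lower. *Abca1*, whose 19 and 30 UMIs there fell short of the minimum of 50 over both libraries, was 3.63-fold lower, with an interval of the log2 ratio from -2.74 to -0.95. In Il17+ T cells 2 genes had enough UMIs and neither passed the fold, where 8.07% of genes were higher and 10.3% lower. Below the minimum, *Hmgcs1* was 2.78-fold (1.03 to 9.41) and *Fdps* 1.83-fold (0.830 to 4.43) higher there. In cycling T cells none of 7 genes with enough UMIs passed the fold, where 5.98% of genes were higher and 11.1% lower, and *Abca1*, on 5 and 0 UMIs, was not compared. *Fdps* was 1.39-fold (1.12 to 1.72) higher there, and the intervals of the ratios of *Hmgcs1*, *Sqle*, *Insig1*, *Idi1*, *Srebf2* and *Abcg1* included 1. The further plasmacytoid dendritic cell genes were higher in cycling T cells too, with *Ccr9* at 3.65 and 17.0 CPM and *Irf8* at 20.7 and 32.8 CPM. Their part in the *Fdps* ratio was not tested.

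Among Siglech+ cells, 3 of 7 genes with enough UMIs were higher in the library labelled dKO and none was lower, where 9.75% of 7622 genes were higher and 6.35% lower. *Abcg1* differed most, 2.89-fold (2.26 to 3.75), followed by *Hmgcs1* at 1.86-fold (1.43 to 2.45) and *Idi1* at 1.61-fold (1.20 to 2.20). *Fdps* was 1.31-fold (1.11 to 1.55) and *Insig1* 1.26-fold (0.983 to 1.62) higher. *Srebf2* was at 1.22-fold (0.989 to 1.53) and *Sqle* at 1.16-fold (0.753 to 1.85), and *Abca1* had too few UMIs. In thinned cells *Abcg1* was detected in 5.98% (4.15 to 8.29) and 13.7% (11.9 to 15.7). When mixed cells of the Siglech and Lyz2 gates with fewer than 3 *Cd3* UMIs were counted as Siglech+ cells, 1352 and 3303 cells resulted, and *Abcg1* was 2.47-fold (2.12 to 2.90), *Hmgcs1* 1.76-fold (1.49 to 2.09) and *Idi1* 1.27-fold higher. Within this class the synthesis list had 7 enzymes higher and 0 lower, led outside the 8 genes by *Mvk*, the mevalonate kinase, at 7.59 and 15.8 CPM. In Siglech+ cells as first gated, 3 UMIs would be 2.28 and 0.832 CPM, so *Mvk* rested on few UMIs for the label WT. *Apoe* was 1.80-fold lower. Siglech+ cells of the library labelled WT were the shallower ones and had 20.6% ribosomal protein UMIs against 16.5%. They also had more of the T cell genes *Trac* (39.5 and 15.0 CPM) and *Trbc2* (23.5 and 5.27 CPM), though less *Cd4* (225 and 323 CPM). A TRB chain was found in 2.35% and 0.765% of them. The part of cell quality and of T cell RNA in these differences was not tested.

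Among C1q+ cells 2 of the 8 genes had enough UMIs. *Abcg1* was 1.74-fold (0.993 to 3.23) higher in the library labelled dKO, on 16 and 63 UMIs, and *Abca1* 1.12-fold (0.820 to 1.54), where 15.3% of 1982 genes were higher and 7.42% lower. The level of *Abca1* in the library labelled dKO was lower without cells of low ribosomal share, as given above. C1q+ cells were not alike in the libraries. *Clec4f* had 21.1 and 63.1 CPM and *Cd5l* 47.6 and 287 CPM, while *Cd68* had 835 and 699 CPM, and their part in these differences was not tested. Among Lyz2+ C1q- cells 5 genes had enough UMIs and 2 of them were higher, where 12.2% of 3356 genes were higher and 9.92% lower. *Insig1* was 2.18-fold (1.05 to 5.09) higher there on 9 and 43 UMIs, and *Fdps* 1.77-fold (1.01 to 3.28) on 16 and 62 UMIs. The 5 further plasmacytoid dendritic cell genes summed to 675 and 1998 CPM in this class, with *Ccr9* at 8.88 and 145 CPM and *Tcf4* at 56.2 and 323 CPM, and their part in these differences was not tested. *Abcg1* was at 0.78-fold (0.507 to 1.22), *Abca1* at 1.07-fold and *Srebf2* at 0.82-fold.

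**Figure D5:**
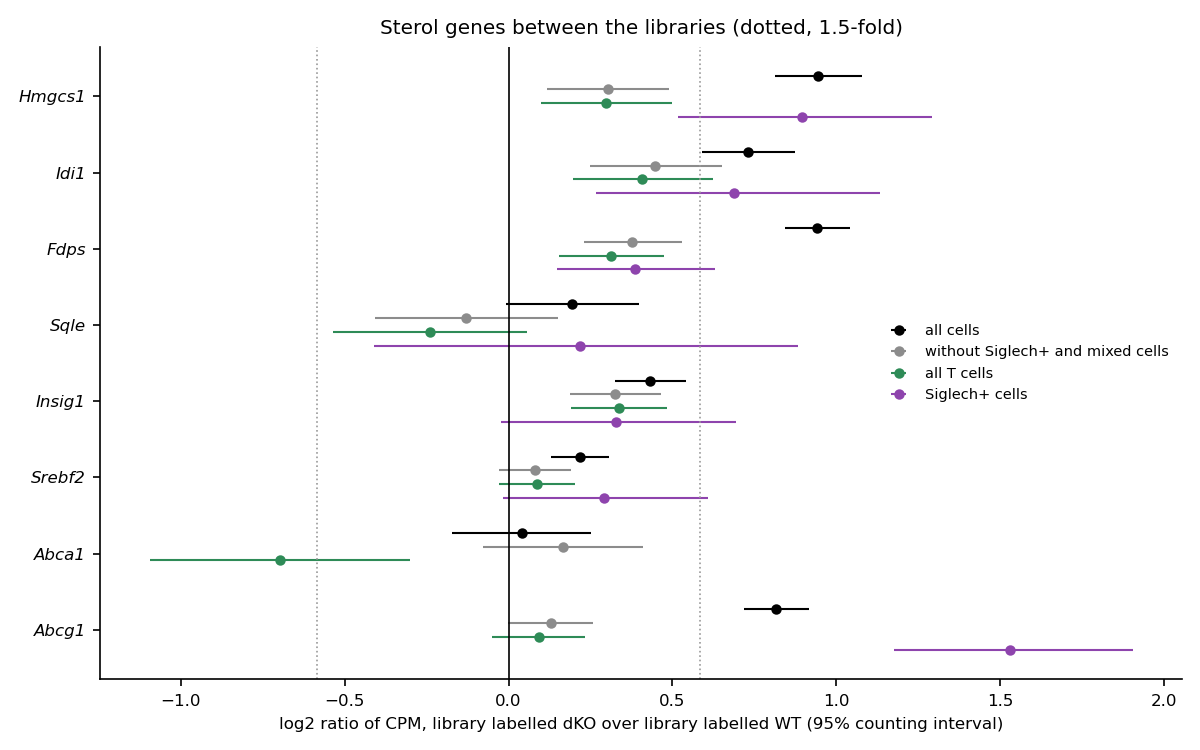
Log2 ratio of CPM, library labelled dKO over library labelled WT (x axis), for the 8 genes (y axis) over all cells, all cells without the Siglech+ and mixed cells, all T cells and Siglech+ cells, with exact 95% counting intervals and dotted lines at 1.5-fold. *Abca1* in Siglech+ cells had under 50 UMIs and is left out. *Abcg1* in Siglech+ cells lies farthest to the right, at 2.89-fold, and over T cells it lies at 1.07-fold.

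The genes most like the synthesis members were sought over 18 units of class and library with at least 50 cells, among 3365 genes with a mean of at least 50 CPM. By Pearson's r of log2(CPM + 10) with the summed *Hmgcs1*, *Sqle*, *Insig1*, *Idi1* and *Fdps*, they were *Smdt1* (r = 0.95), *Emp3* (0.95), *Ufm1* (0.94), *Manf* (0.93) and *Sec61g* (0.92). For the sum of *Abca1* and *Abcg1* they were *Lamp1* (0.95), *Apobec1* (0.93), *BC005537* (0.93), *Ftl1* (0.93) and *Marcks* (0.93). Among the members themselves *Idi1* and *Fdps* were most alike (r = 0.91), and *Abca1* and *Srebf2* least (r = -0.37). Over the 12 units of T cell classes alone, *Idi1* and *Fdps* were at r = 0.86 and *Abca1* and *Srebf2* at -0.09, while *Sqle* and *Abcg1* were least alike, at -0.97 against 0.07 over all 18 units. *Hmgcs1* and *Abcg1* were at 0.57 over all units and at -0.37 over T cell classes. The units share 2 libraries, and classes differ in depth, so these values are descriptions.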

How the data were processed

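Hepatic CD4+ T cells were measured by 5′ droplet RNA-Seq in 1 library per genotype. The authors deposited UMI counts per gene and cell for the cells called by Cell Ranger 7.0.1 on mm10, without normalization, and receptor contigs. The productive TRB contigs of each cell were counted here to find cells with 2 or more TRB chains. The study's own limits on cells were applied: over 200 detected genes, and a mitochondrial share of UMIs under 5%. No doublet caller was run.

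Classes were gated on raw UMIs, and UMIs were summed per class. A gene entered a comparison of libraries with at least 50 UMIs over both, and of classes with at least 20 in each library. A sum of 0 was taken as 3 UMIs. Identifiers were matched to GENCODE M21 for 32158 genes. Python 3.11.15, numpy 2.4.6, pandas 2.3.3, scipy 1.17.1, matplotlib 3.10.9 and edgeR 4.0.16 (TMM factors alone) were used, and the ratio code was tested on simulated data.

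The members, gates and lists were chosen with earlier results of these data known. The rule named every member in each comparison, though where few passed the fold or had enough UMIs the rest are given by count, with up to 5 pathway genes past the fold in each direction and the 5 genes of most similar pattern; further pathway and marker genes, and the promoter motifs, were chosen after values were seen. Counts of 1 library per genotype give no spread between mice. Some genes of the lists enter the counts but are not reported here by name.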

Additional observations from a re-analysis of the deposited data

How the results depend on the processing

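No paired analysis was possible because each genotype has 1 library, and no replicate could be left out. Over all cells the count of members higher in the library labelled dKO was 4, and fell to 2 at 1 class mix and to 0 without the Siglech+ and mixed cells. A fold of 2 in place of 1.5 left 0 members higher over all cells, 0 lower in T cells and 1 higher in Siglech+ cells. Between classes it left 3 higher and 0 lower in Siglech+ cells, 1 higher in Lyz2+ C1q- cells, 1 lower in cycling T cells, 0 higher and 0 lower in naive-like T cells and 0 higher in Il17+ T cells. With all deposited cells 5 were higher in Lyz2+ C1q- cells. With 2 or more Foxp3 UMIs 1 was lower in Foxp3+ T cells. A wide gate that added T cells with 2 of *Il2ra*, *Ctla4* and *Ikzf2* gave 1 higher in Foxp3+ T cells, 2 lower in naive-like T cells, 0 higher in Il17+ T cells and 1 lower in Ifng+ T cells. With at least 1000 UMIs per cell 2 were lower in naive-like T cells, and without cells with 2 or more TRB chains 0 were lower in Il17+ T cells. Between the libraries, the 1 member higher in naive-like T cells fell to 0 with TMM scaling, with CPM averaged over single cells, without cells with 2 or more TRB chains, with 2 or more Foxp3 UMIs, with the wide gate, at a fold of 2 and with at least 200 UMIs, and rose to 2 with at least 20. The 1 lower in Ifng+ T cells fell to 0 with TMM scaling, with that average, with at least 1000 UMIs per cell, with 2 or more Foxp3 UMIs, with the wide gate, at a fold of 2 and with at least 200 UMIs, and rose to 2 with at least 20. The 1 higher in the remaining T cells fell to 0 with 2 or more Foxp3 UMIs, with the wide gate and at a fold of 2, and the average gave 1 lower there and 1 higher in cycling T cells. In Foxp3+ T cells 1 was higher with TMM scaling, with at least 1000 UMIs per cell and with the wide gate, 2 with 2 or more Foxp3 UMIs, and 1 was lower with the wide gate and with at least 20 UMIs. With at least 20 UMIs 2 were higher in Il17+ T cells, 3 were higher and 1 lower in C1q+ cells and 1 was lower in Lyz2+ C1q- cells. In C1q+ cells 2 were higher with the average and 0 at a fold of 2 or with at least 200 UMIs, and in Lyz2+ C1q- cells 1 was higher at a fold of 2 and 0 with at least 200 UMIs. The cause was not tested. In all, 292 member counts stayed within 1.5 times the reported ones and 56 did not, and of pathway list counts 1203 did and 189 did not. Of levels 1112 stayed within their intervals and 8 did not, and of log2 ratios between the libraries 634 did and 21 did not. Shares of cells and of co-detection depend on the depth drawn: at 2000 UMIs or unthinned, 70 shares of cells moved and 26 did not, and 11 shares of co-detection moved and 9 did not. At 2000 UMIs *Hmgcs1* was detected in 24.1% (19.3 to 29.4) of Siglech+ cells with *Fdps* and 11.6% (9.48 to 14.0) of those without in the library labelled dKO. In that library *Idi1* was detected in 32.7% (20.3 to 47.1) of cycling T cells with *Fdps* and 5.37% (3.36 to 8.09) without. Its shares in the remaining T cells were 15.0% (7.10 to 26.6) and 3.29% (2.23 to 4.66), while the intervals of *Hmgcs1* overlapped there. In the library labelled WT these *Idi1* intervals overlapped in both T cell classes. *Abca1* in C1q+ cells of the library labelled dKO was 218 CPM without cells under 8% ribosomal protein UMIs, against 348 CPM. TMM scaling moved log2 ratios by 0.03 over all cells and by at most 0.10 in a class. In classes of under 150 cells none of the members of synthesis other than *Srebf2* had over 23 UMIs.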
